A study of Mus musculus with 6 samples.

Results

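The genes described here carry proteins from the endoplasmic reticulum (ER) to the Golgi apparatus and back, together with the CREB3 family of transcription factors. They were found by symbol: a probe set was taken where the array annotation named it with 1 gene alone and that symbol belonged to the CREB3, p24 (Tmed), KDEL receptor, COPII, COPI, ARF, TRAPP, golgin or early SNARE families or to a few cargo receptors and tethers. Where several probe sets named a gene, the one chosen by the highest mean over all arrays was used. This gave 81 genes, read by 86 probe sets, of the 19938 genes that the array names alone. Kdelr2 and Tmed1 were not analysed here, since 0 probe sets named them alone. The families were put together with earlier results of the same comparison known, in which Creb3l2, Tmed3 and Kdelr3 stood among the largest falls. Differences, counts and calls are therefore a description of these genes and are not independent evidence of their direction.

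Proteins leave the ER in vesicles with a COPII coat, built by the GTPase SAR1 and the SEC23, SEC24 and SEC31 subunits at exit sites marked by SEC16. COPI vesicles, formed with ARF GTPases, bring escaped ER proteins and transport receptors back, and the KDEL receptors pick out ER chaperones for this return. Golgins and TRAPP complexes tether arriving vesicles, and SNAREs fuse them with the target membrane. CREB3 family factors are held in the ER membrane and are released as transcription factors once they reach the Golgi and are cut by site-1 and site-2 proteases. CREB3L2, also called BBF2H7, is known from cartilage as an activator of Sec23a, whose product is needed there for collagen export.

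The cells were N2A, a line from a mouse neuroblastoma, and their RNA was read on Affymetrix Mouse Gene 1.0 ST arrays. Control cells (3 arrays) had received 1.5 ug of a non-targeting vector, and Dali knockdown cells (3 arrays) had received the same amount of a construct encoding a short hairpin RNA against Dali, a long non-coding RNA transcribed beside Pou3f3. Both groups were transfected transiently, so each array averages over transfected and untransfected cells. The harvest is taken here as 2.5 days later. That lies inside the range in the study's methods, while a figure legend of the study gives a longer time. A single knockdown construct was compared with a single control vector, and loss of Dali cannot be told apart from other effects of that construct. In bulk RNA, fewer cells expressing a gene and less RNA per cell cannot be told apart either. Values are log2 intensities after robust multi-array averaging (RMA), which are relative to the rest of each array. Array medians lay between 7.86 and 7.93. No probe set was annotated to Dali, so the depletion itself was not checked here, and the neighbouring Pou3f3 differed by 0.04 (SE 0.15, n = 3 per group). Markers of the sympathetic lineage were present, with Stmn2 at 13.51 ± 0.04 and Chgb at 13.40 ± 0.08 in control cells (SD, n = 3). The 12 lineage markers measured had a median difference of -0.12 between knockdown and control, and of -0.13, -0.05 and -0.11 within replicate numbers 1, 2 and 3. Their summed log2 level was 136.82 to 137.92 on control and 135.74 to 136.95 on knockdown arrays. Chga, Chgb, Hand2 and Phox2a lay wholly lower and Elavl4 wholly higher in knockdown cells, and none of the 12 was called. Over all genes 7.11% lay wholly lower and 8.47% wholly higher. The share wholly lower was 12.1% at levels above 10 and up to 12, and 14.2% above 12. None of the 6 fibroblast, 5 macrophage, 4 astrocyte and 4 epithelial markers measured was called. The medians of these 4 lists were 0.12 to 0.30 higher in knockdown than in control replicate 1 and between -0.13 and -0.01 in the other pairs of one replicate number. In control cells the median log2 levels of the lists were 6.56 to 7.96, below the 8.38 of all genes. The part of any of these lists in the results was not tested.

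A gene was called when the Benjamini-Hochberg adjusted p of limma, a linear model fitted across all probe sets, was under 0.1 and the fold at least 1.3. Before that test a filter kept the probe sets whose values varied most over the 6 arrays, and 36 of the 81 genes passed it. Of these, 4 fell (Creb3l2, Tmed3, Kdelr3 and Tmed8), 0 rose and 32 were not called. Over the whole array 0.769% of probe sets tested were called lower and 0.367% higher. With the replicate number as a block, which compares arrays of one number with each other, 7 genes fell and 0 rose, the additional ones being Sec23a, Arfgap3 and Copz2. The block called 4.89% of all probe sets lower and 2.77% higher. Without knockdown replicate 1 the count was 1, Creb3l2, in a fit that called 3 probe sets lower and 1 higher over the whole array.

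**Figure D1:**
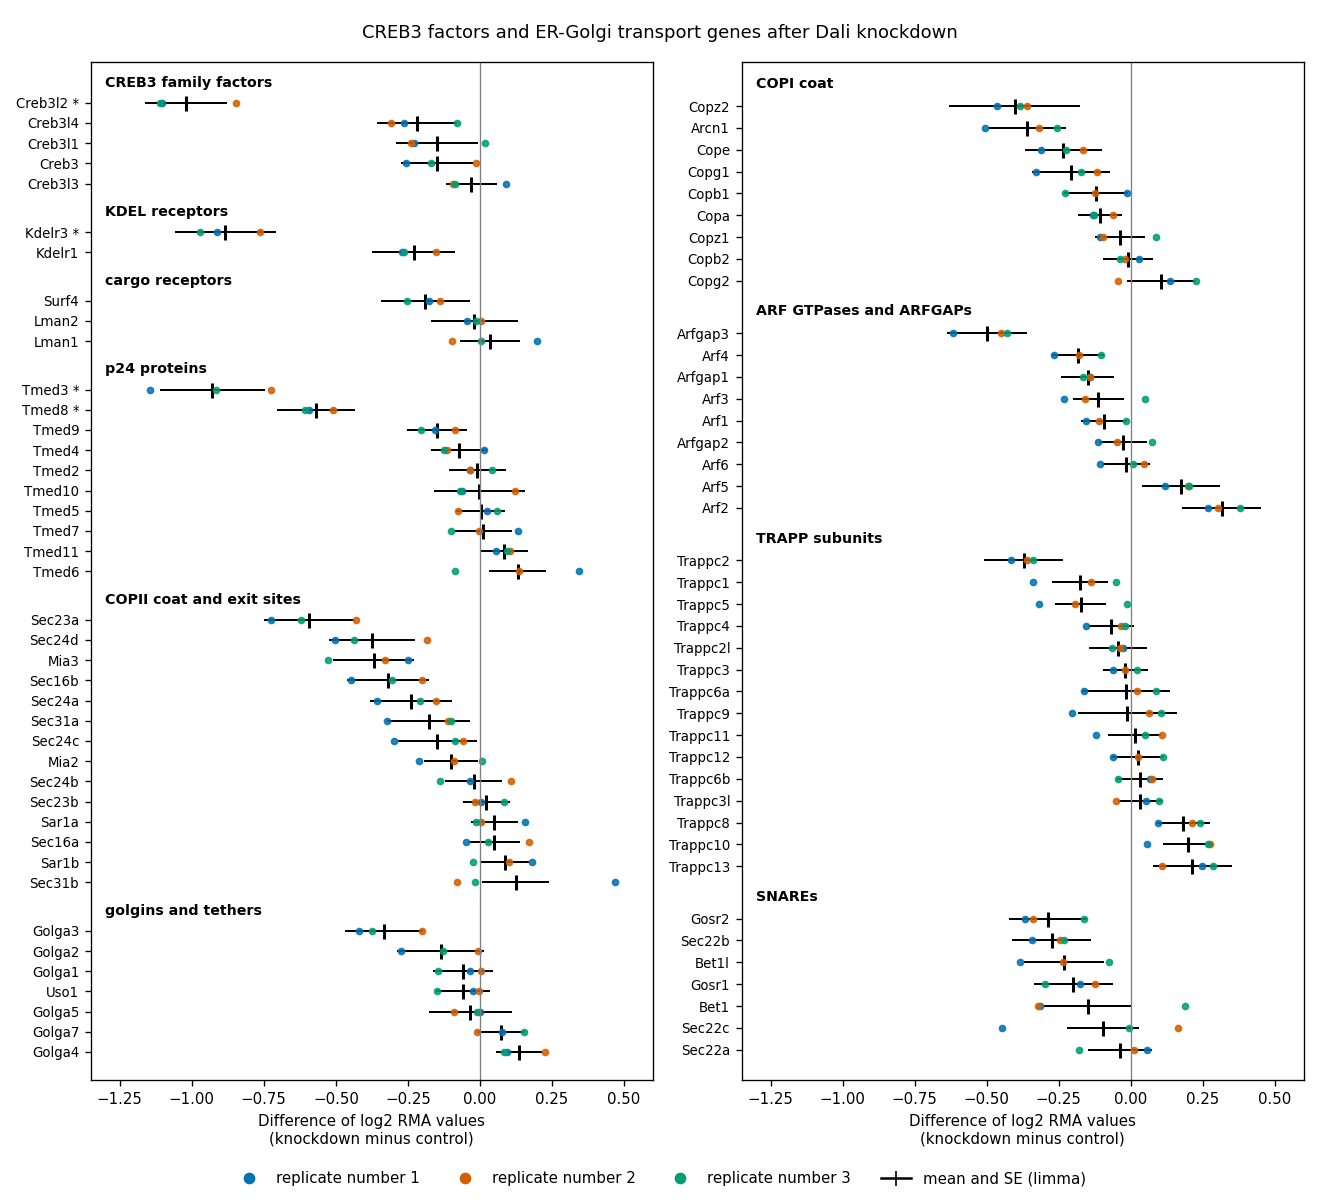
Differences of log2 RMA values, knockdown minus control, for all 81 genes ordered by role, on a horizontal axis in log2 units. Coloured points are differences between arrays of one replicate number, black marks the mean with its SE from limma, and an asterisk a called gene. The called genes Creb3l2, Kdelr3, Tmed3 and Tmed8 lie at -1.02, -0.88, -0.93 and -0.57, and all 5 CREB3 factors and all 7 SNAREs have means below 0. Means below 0 were found for 45.0% of all genes.

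Among the CREB3 factors, Creb3l2 fell 2.03-fold. Its log2 values were 11.20, 11.28 and 11.23 on the control arrays and 10.09, 10.43 and 10.12 on the knockdown arrays. The groups did not overlap, and the difference of -1.02 (SE 0.14) exceeded the SD of either group (0.04 in control and 0.19 in knockdown, n = 3). The other 4 family members had lower means by smaller amounts, where 45.0% of all genes had a lower mean. Creb3l4 and Creb3l1 were tested and not called, and the filter removed Creb3 and Creb3l3. Creb3l4 read 7.33, 7.44 and 7.15 in control and 7.07, 7.13 and 7.07 in knockdown cells, without overlap (difference -0.22, 95% interval -0.50 to 0.07). Creb3l1, known for collagen gene activation in bone, differed by -0.15 (-0.44 to 0.14) and its groups overlapped. Creb3, the founding member, also differed by -0.15 (-0.43 to 0.14). Creb3l3, a factor best known from liver and intestine, differed by -0.03 (-0.22 to 0.16). Whether Creb3l2 differed from its relatives in response was not tested. The window before a RefSeq start of Creb3l2 (GRCm38.p6, chr6:37442119-37442398, minus strand, from 250 bases before to 30 after the start) is shown because it belongs to the factor with the largest fall. Capitals mark TGACG, the shorter core shared by cyclic AMP and unfolded protein response elements, on either strand.
Creb3l2: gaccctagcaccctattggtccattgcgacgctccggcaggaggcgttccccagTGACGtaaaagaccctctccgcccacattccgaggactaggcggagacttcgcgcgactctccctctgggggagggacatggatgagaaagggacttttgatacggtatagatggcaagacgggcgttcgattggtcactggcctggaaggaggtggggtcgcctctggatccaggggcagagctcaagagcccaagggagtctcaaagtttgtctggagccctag

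Kdelr3 and Kdelr1 encode receptors that recycle ER residents, and both were lower in each pair of arrays with one number. So were 19.9% of all genes. Kdelr3 read 8.42, 8.89 and 8.56 in control and 7.51, 8.12 and 7.58 in knockdown cells. The highest knockdown array stayed below the lowest control array, and the 1.84-fold fall had a difference of -0.88 (SE 0.17). Replicate 2 was the highest array of both groups. Kdelr3 was not called without the variance filter (limma adjusted p 0.143) or without knockdown replicate 1 (0.37). Kdelr1 read 11.47, 11.63 and 11.70 against 11.20, 11.48 and 11.43, with overlap by 1 array (difference -0.23, 95% interval -0.52 to 0.06), and was not called. The Kdelr3 promoter (chr15:79516158-79516437, plus strand) is shown because it holds the core of an unfolded protein response element (UPRE), TGACGTGG, on its reverse strand. The match spans bases -30 to -23 from the start and is in capitals.
Kdelr3: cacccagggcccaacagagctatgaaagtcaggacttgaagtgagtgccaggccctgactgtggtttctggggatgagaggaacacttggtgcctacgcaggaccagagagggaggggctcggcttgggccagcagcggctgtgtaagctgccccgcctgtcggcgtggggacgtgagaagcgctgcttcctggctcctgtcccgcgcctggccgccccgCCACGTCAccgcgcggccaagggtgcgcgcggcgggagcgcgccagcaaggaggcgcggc

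The p24 family is known for proteins that sit in vesicle membranes and help to sort cargo such as lipid-anchored proteins. Of the 10 Tmed genes measured, 3 passed the filter and were tested, and 2 of these fell. Among all probe sets tested 0.769% were called lower. Tmed3 read 10.08, 10.12 and 10.55 in control and 8.93, 9.39 and 9.64 in knockdown cells. All knockdown arrays were below all control arrays, by 0.93 on average (SE 0.18), a 1.90-fold fall. Tmed3 was not called without the variance filter (limma adjusted p 0.148) or without knockdown replicate 1 (0.36). Tmed8, less studied and taken in by its symbol, varied little within either group, at 10.69, 10.62 and 10.59 against 10.10, 10.11 and 9.98. Its 1.48-fold fall (difference -0.57, SE 0.13) passed the threshold with an adjusted p of 0.069 in limma. Tmed8 was not called when any of control replicate 1, control replicate 2, knockdown replicate 1 or knockdown replicate 3 was left out (adjusted p 0.14 to 0.37). Tmed2, Tmed10, Tmed5 and Tmed7, of which Tmed10 was tested and not called, differed by -0.01, 0.00, 0.00 and 0.01. Further probe sets of Tmed2 differed by -0.01 and -0.02 and that of Tmed10 by 0.13. Tmed9 differed by -0.15 and Tmed4 by -0.07, while Tmed6 and Tmed11 were higher by 0.13 and 0.08. Tmed11 lay near the floor of the arrays (3.59 ± 0.07, SD, n = 3, in control). No TGACG occurs in the Tmed3 window (chr9:89705014-89705293, minus strand), shown for comparison with Kdelr3.
Tmed3: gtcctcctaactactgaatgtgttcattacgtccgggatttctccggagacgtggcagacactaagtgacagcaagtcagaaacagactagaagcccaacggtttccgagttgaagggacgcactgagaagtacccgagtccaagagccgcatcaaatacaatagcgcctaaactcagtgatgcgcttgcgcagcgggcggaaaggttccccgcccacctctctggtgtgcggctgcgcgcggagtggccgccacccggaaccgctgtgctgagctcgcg

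Of the 14 COPII genes 9 had a lower mean, against 45.0% of all genes, and 0 of the 7 tested were called without the block. Sec23a, for an inner coat subunit, read 11.98, 11.95 and 11.65 in control and 11.25, 11.52 and 11.03 in knockdown cells. Its groups did not overlap, its difference was -0.59 (SE 0.15) and the limma adjusted p 0.106, just short of the threshold. With the replicate block it was 0.011 and the gene was called lower. Sec23b, the other gene for this subunit, differed by 0.02 (95% interval -0.16 to 0.20). A test of the difference between them was not made. Among the cargo-binding SEC24 subunits, Sec24d read 10.80, 10.72 and 10.55 against 10.30, 10.53 and 10.11, a difference of -0.37 (-0.68 to -0.07). Sec24a differed by -0.24, Sec24c by -0.15 and Sec24b by -0.02. Mia3, also called TANGO1, which loads collagen at exit sites, read 11.75, 11.97 and 11.88 against 11.50, 11.64 and 11.35, a difference of -0.37 (-0.66 to -0.08). Its relative Mia2 differed by -0.10. The scaffold genes Sec16b and Sec16a differed by -0.32 and 0.05, and the outer coat genes Sec31a and Sec31b by -0.18 and 0.12. The GTPase genes Sar1a and Sar1b differed by 0.05 and 0.09. Each of Sec23a and Sec24d has a UPRE core within 30 bases of its start, at bases 7 to 14 and -26 to -19. Copb1, Copb2 and a start of Arf1 also have one that near, at differences of -0.12, -0.01 and -0.09. Those are not printed, the genes with larger falls having been chosen. The windows are of Sec23a (chr12:59011988-59012267, minus strand) and Sec24d (chr3:123267246-123267525, plus strand).
Sec23a: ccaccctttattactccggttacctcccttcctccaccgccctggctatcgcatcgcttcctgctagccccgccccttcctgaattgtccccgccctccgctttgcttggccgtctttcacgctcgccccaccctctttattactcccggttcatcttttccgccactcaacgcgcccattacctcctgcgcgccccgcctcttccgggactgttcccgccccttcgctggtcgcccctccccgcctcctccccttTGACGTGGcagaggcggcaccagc
Sec24d: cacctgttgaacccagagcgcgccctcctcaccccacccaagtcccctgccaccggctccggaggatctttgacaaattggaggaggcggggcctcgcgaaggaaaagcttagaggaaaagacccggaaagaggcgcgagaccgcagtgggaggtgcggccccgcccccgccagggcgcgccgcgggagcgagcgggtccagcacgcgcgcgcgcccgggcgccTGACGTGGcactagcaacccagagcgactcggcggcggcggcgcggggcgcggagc

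**Figure D2:**
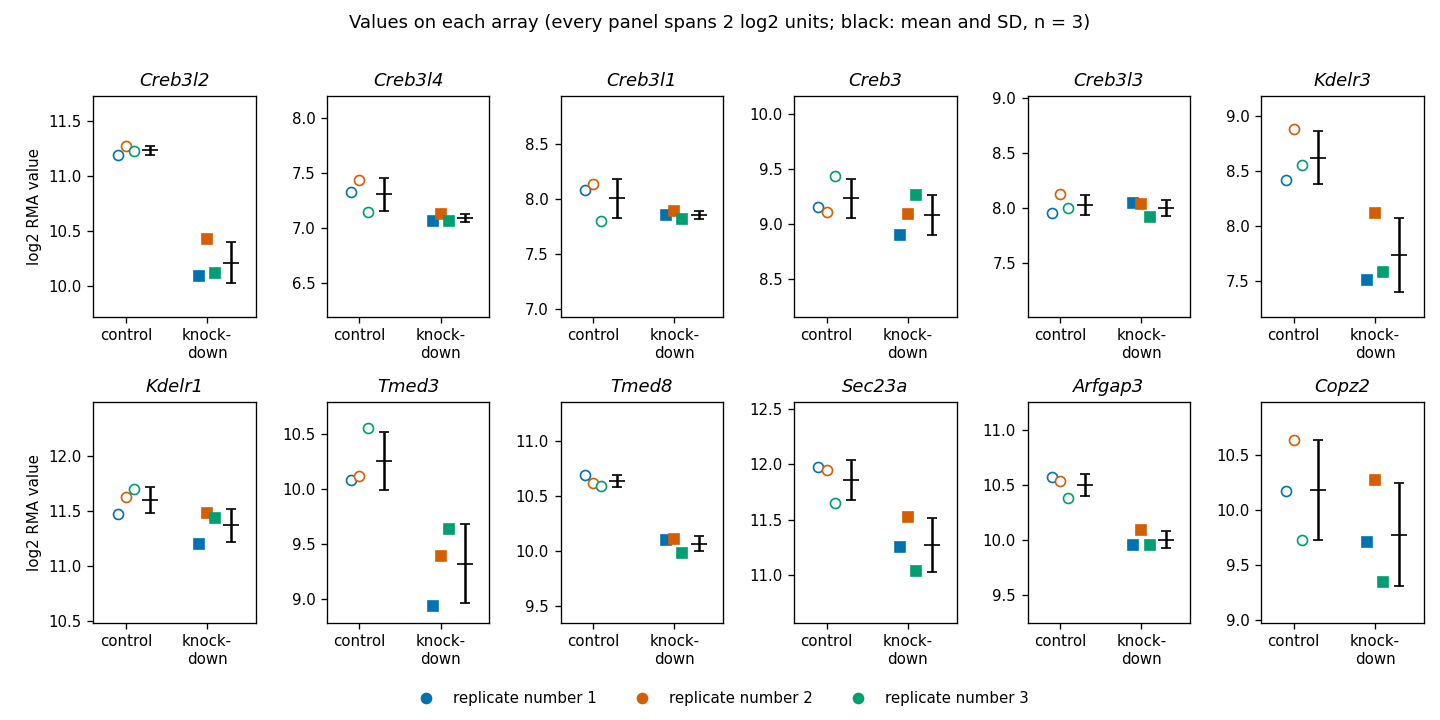
Log2 RMA values on each array for 12 genes, where an open circle is a control and a filled square a knockdown array, colours give the replicate number, and black marks give the mean and SD (n = 3). Every vertical axis spans 2 log2 units. The groups stand apart for Creb3l2 (means 11.24 and 10.22), Kdelr3, Tmed3, Tmed8, Sec23a and Arfgap3 and overlap for Creb3l3 and Copz2.

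Of 3 cargo receptors 0 of the 2 tested were called. Surf4, which exports soluble cargo, differed by -0.19 (95% interval -0.51 to 0.13), and the lectin receptor genes Lman2 and Lman1 by -0.02 and 0.03. For COPI, 8 of 9 coat genes had a lower mean, against 45.0% of all genes, and 0 of the 4 tested were called without the block. Copz2, an alternative zeta subunit, read 10.17, 10.63 and 9.72 in control and 9.71, 10.27 and 9.34 in knockdown cells. The arrays of a group spread over more than the difference of -0.40 (SE 0.22), but within a replicate number the differences were -0.46, -0.36 and -0.39. Its limma adjusted p was 0.48 without the replicate block and 0.020 with it, where the gene was called lower. Arcn1, the delta subunit, read 11.54, 11.42 and 11.42 against 11.03, 11.10 and 11.17, without overlap (difference -0.36, -0.64 to -0.08). Cope, Copg1 and Copa also did not overlap, at differences of -0.23, -0.21 and -0.11, and Copg2 was the gene with a higher mean (0.11). The share of all genes wholly lower was 7.11%.

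Of the 9 ARF and ARFGAP genes 7 had a lower mean, against 45.0% of all genes, and 0 of the 3 tested were called without the block. Arfgap3, a GTPase-activating protein that acts on ARF1 at the Golgi, read 10.57, 10.54 and 10.38 in control and 9.96, 10.09 and 9.95 in knockdown cells. The groups did not overlap (difference -0.50, SE 0.13) and the limma adjusted p was 0.111, or 0.013 with the replicate block, where the gene was called lower. The other ARFGAP genes, Arfgap1 and Arfgap2, differed by -0.15 and -0.03. Arf2 lay in the opposite direction at 10.66, 10.56 and 10.44 against 10.92, 10.86 and 10.82, the highest difference among the 81 genes (0.32, 95% interval 0.03 to 0.60), and was not called. Arf5 was higher by 0.17 without overlap, whereas Arf4 was lower by 0.18, also without overlap. Arf1 was read by a pair of probe sets that differed by -0.09 and -0.12.

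Of 15 TRAPP genes, 8 had a lower and 7 a higher mean, where 45.0% of all genes had a lower one, and 0 of the 4 tested were called. Trappc2, or sedlin, read 12.21, 12.32 and 12.15 against 11.79, 11.96 and 11.81, a difference of -0.37 (95% interval -0.65 to -0.09). Its second probe set differed by -0.42, which limma called with the replicate block. Trappc13, Trappc10 and Trappc8 lay on the other side, higher by 0.21, 0.20 and 0.18 with no overlap between groups. Of all genes 8.47% lay wholly higher. Among golgins and the tether Uso1 the largest difference was that of Golga3 (9.51, 9.40 and 9.40 against 9.09, 9.19 and 9.02, difference -0.33), while Golga4 was higher by 0.13 and the cis-Golgi gene Golga2 differed by -0.14. All 7 SNARE genes had a lower mean, against 45.0% of all genes, with differences from -0.29 to -0.04, and 0 of the 5 tested were called. Gosr2, a Golgi SNARE, read 11.50, 11.53 and 11.46 against 11.13, 11.19 and 11.30. Sec22b, Bet1l and Gosr1, at -0.27, -0.23 and -0.20, likewise had all knockdown arrays below all control arrays, as did 7.11% of all genes.

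Seen as a group, 59 of the 81 genes had a lower mean in knockdown cells (72.8%) and 22 a higher one. Over all genes 8976 of 19938 had a lower mean (45.0%). Their median difference was -0.07 (quartiles -0.21 and 0.01), against 0.02 over all 19938 genes. Within replicate numbers 1, 2 and 3 the median of the 81 was -0.14, -0.08 and -0.07, and that of all genes 0.05, 0.00 and -0.02. In 23 genes all knockdown arrays lay below all control arrays, and in 6 above, where 7.11% and 8.47% of all genes did so. The 81 genes were measured at a median log2 level of 11.02 in control cells, above the 8.38 of all genes, and the share without overlap rose with level over the array. In the band of levels above 10 and up to 12, 14 of 45 members lay wholly lower in knockdown (31.1%), against 12.1% of all genes in that band, and the medians were -0.11 and 0.00. The 6 members with levels up to 8 had a median of 0.06, and all genes there 0.03. The part of the level in these shares was not tested.

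**Figure D3:**
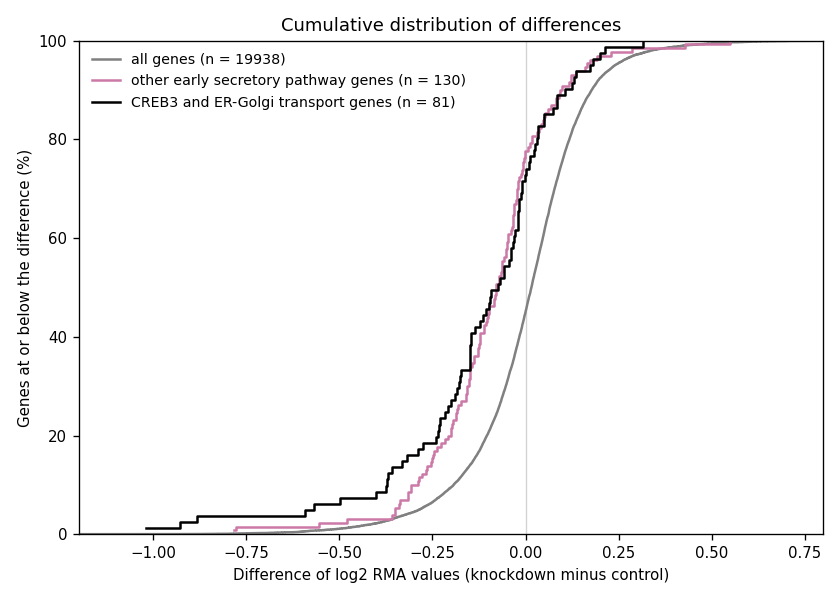
Cumulative share of genes (vertical axis, %) at or below a given log2 difference between knockdown and control means (horizontal axis, negative where knockdown is lower), for the 81 genes, for 130 other genes of the early secretory pathway and for all 19938 genes. Both pathway curves lie left of that for all genes around 0, with medians of -0.07, -0.08 and 0.02.

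Genes of the early secretory pathway outside these families were read from the same fit, by lists chosen for their roles. Of 130 measured, 101 had a lower mean, with a median difference of -0.08. Among the 80 tested 3 fell, 1 rose and 76 were not called, where 0.769% of all probe sets tested were called lower and 0.367% higher. In 23 of the 130 all knockdown arrays lay below all control arrays, and in 6 above, against 7.11% and 8.47% of all genes. Ganab, the catalytic subunit of ER glucosidase II, fell 1.72-fold (12.41, 12.57 and 12.56 to 11.53, 11.79 and 11.89). Srprb, which anchors the signal recognition particle receptor, also fell 1.72-fold (from between 10.99 and 11.35 to between 10.08 and 10.62). Ergic2, of the compartment between ER and Golgi, fell 1.47-fold (11.37, 11.40 and 11.62 to 10.87, 10.83 and 11.03). In these genes no knockdown array reached the lowest control array. Nsf, the ATPase that takes spent SNARE complexes apart, rose 1.46-fold (10.79, 10.64 and 10.59 to 11.27, 11.09 and 11.31), without overlap. Calls of Ergic2 and Nsf were near the threshold (adjusted p = 0.089 for both in limma). Srprb, Ergic2 and Nsf were not called without the variance filter (limma adjusted p 0.13, 0.13 and 0.12), and neither these nor Ganab without knockdown replicate 1 (0.27 to 0.42). With the replicate block Rab2a, a Golgi GTPase, was also called lower (-0.48, limma adjusted p 0.12 without and 0.014 with the block), and Golim4, a Golgi membrane protein, higher (0.43, 0.19 and 0.027). Golim4 was named for having the smallest p of its list, and Rab2a after its values were seen.

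By role, and beside the 45.0% of all genes with a lower mean, N-glycosylation and ER trimming genes had a lower mean in 27 of 31, with a median of -0.10, and COPII and export genes outside the families in 18 of 22, with a median of -0.14. Preb, which loads SAR1 with GTP, differed by -0.28 without overlap, and Sec13, of the outer COPII coat, by -0.15. The translocon and signal peptide genes were lower in 17 of 23 (median -0.04), tethers and SNAREs in 25 of 33 (-0.10) and COPI and ARF regulators in 7 of 13 (-0.01). In that last list Golim4 differed by 0.43 and Arfip2 by -0.25. Of 8 genes for the proteases and ER anchors of membrane-bound factors 5 were tested and 0 called. Differences of the tested genes ran from -0.14 for Srebf2 to -0.002 for Srebf1. The filter removed the other 3, which were Insig2 (-0.22), Atf6 (-0.15) and Mbtps1, the site-1 protease (0.05, 95% interval -0.15 to 0.25).

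Promoter sequence was set beside these differences as a description, since genes and motifs were both chosen with earlier results known. RefSeq windows of 300 bases (GRCm38.p6, 250 before to 50 after a transcript start) were matched for 68 of the 81 genes, in 82 windows. The UPRE core TGACGTGG, searched on both strands, was in 8 of 82 windows (9.76%) of 7 genes, and in 0.676% of all 32851 windows. The genes were Kdelr3, Sec23a, Sec24d, Sec16b, Copb1, Arf1 and Copb2. The windows of Arf1 overlap and hold one and the same site, which is counted for both starts. By gene, the motif was in 7 of 68 members and in 193 of all 27025 genes (0.714%). The cyclic AMP response element TGACGTCA was in 2 windows (2.44%), those of Cope and Gosr2, and in 1.79% of all. TGACG, which is contained in both of these motifs, was in 36 windows (43.9%) and in 20.8% of all. The ER stress response element, which is CCAAT and CCACG parted by 9 bases of any kind, and its second form, ATTGG and CCACG parted by 1 base, were in 0 windows, as against 0.119% and 0.0365% of all. Member windows were richer in G and C (median 59.3%) than all windows (52.7%), and the part of base composition in these shares was not tested.

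The 7 genes with a UPRE core all had a lower mean in knockdown cells, from -0.88 for Kdelr3 to -0.01 for Copb2, with a median of -0.32. The 61 genes with a promoter window but no such match had a median of -0.10, and 45 of them had a lower mean. Creb3l2, Tmed3, Tmed8 and Arfgap3 are among these 61. Only exact matches were searched, so GACGTGG preceded by A in the Tmed3 window was not counted. The part of the motif in these differences was not tested. Outside the 81 genes, 135 genes with the motif had a median difference of -0.01 and 69 of them a lower mean, against 0.02 over the 15359 without it. A match describes letters in these windows and not a bound site.

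**Figure D4:**
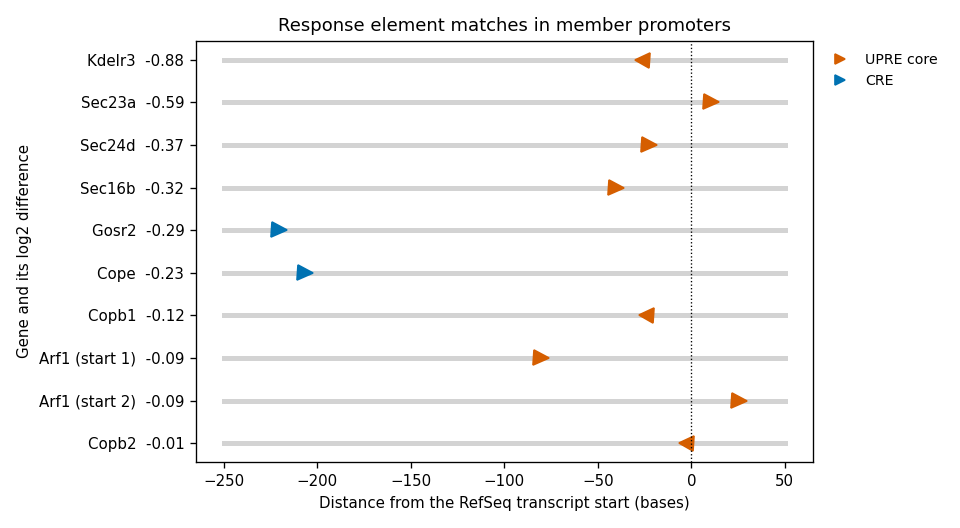
Positions of the UPRE core (orange) and the cyclic AMP response element (blue) in promoter windows of transport genes that hold either, with distance from the RefSeq transcript start in bases on the horizontal axis and arrowheads for the strand. Genes are ordered by their difference of log2 RMA values, from -0.88 for Kdelr3 to -0.01 for Copb2. UPRE cores lie between bases -84 and 29 from a start, with a single Arf1 site drawn against both of its starts, and the cyclic AMP response elements of Cope and Gosr2 begin at bases -210 and -224.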

How the data were processed

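Total RNA (200 ng) of each of 6 samples was hybridised to its own array. The authors background corrected, quantile normalised and summarised the probes of each gene with RMA. What they deposited is log2 intensity. Neither the software versions nor the set of arrays normalised in one run is given in the sources used here. Groups and replicate numbers came from the sample titles. The replicates are called biological in the series description, without naming cultures or days, so the p-values may reflect technical spread alone.

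Of 35556 rows, 23410 had at least 1 gene symbol. Following the study's methods, the 11705 with an interquartile range above the median were tested with limma 3.58.1 in R 4.3.3 (lmFit and eBayes, two-sided), and p-values were adjusted over all of them. Reading the study's variance cut-off as the median was a choice made here. Estimates of genes that the filter removed came from the fit without it. Intervals are 95% intervals of the fit, and the number of arrays limits the precision. The procedure was tested on simulated data.

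The members, lists and motifs were chosen with earlier results of these data known. Named genes were all CREB3 factors and KDEL receptors, called members, the 3 members of each role with the largest difference, and called genes of the other lists (otherwise the 2 with the smallest p). Others were named for comparison within a family.

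Deviations from the group means ran together in arrays of one number (correlations of 0.14, 0.65 and 0.65 over all annotated probe sets), so the labels' numbers were treated as pairs, and the fit with the replicate block is given where it changed a call. For number 1 this was not specific, control replicate 1 having had its highest correlation with knockdown replicate 2 (0.20). Promoter sequences were RefSeq windows of GRCm38.p6.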

Additional observations from a re-analysis of the deposited data

How the results depend on the processing

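Against 4 genes of the transport families called lower, 2 were called without the variance filter (Creb3l2 and Tmed8), 7 with the replicate block, 6 with a trended and robust variance, 5 with the mean of all probe sets of a gene, 4 with arrays centred on their medians or dim probe sets left out, and 3 at an adjusted p under 0.05. Leaving out one array gave 1 to 6. The lowest was without knockdown replicate 1, which left Creb3l2, and the highest without control replicate 3 or knockdown replicate 2, which added Sec23a and Arfgap3. The main fit called 90 probe sets lower and 43 higher over the whole array. These counts were 29 and 12 without the variance filter, 572 and 324 with the block and 254 and 173 with a trended and robust variance. They were 3 and 1 without knockdown replicate 1, 222 and 109 without control replicate 3, and 334 and 174 without knockdown replicate 2. Creb3l2 was called under each of these settings, and no member was called higher under any. The median difference of the 81 genes (-0.07) was -0.23 over the 36 kept by the filter, which favours large differences, -0.04 with centred arrays, and -0.10 to -0.05 when one array was left out. It kept its sign under each alternative. Of the other pathway genes, 3 lower and 1 higher in the main comparison became 1 and 0 without the variance filter, 4 and 2 with the replicate block, 2 and 0 with dim probe sets left out and 2 and 0 at an adjusted p under 0.05. Leaving out one array gave 0 to 3 lower and 0 to 2 higher, both lowest without knockdown replicate 1. Apart from the construction of each alternative, the cause of these changes was not tested. The block also called Copz2, Rab2a and Golim4, and changed no call named here in the other direction. No named difference changed its sign with a call. Dropping the 1.3-fold minimum left the counts at 4, 3 and 1.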
